A study of Mus musculus with 12 samples.

Results

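DNA transposon repeats were the names in the deposited repeat table whose class field read DNA. They made up 185 of the table's 1387 names, sorted here into 17 families from the family field. That field held several labels for 6 names. MuDR and MULE-MuDR, which 4 names starting with Ricksha carried side by side, were merged into MULE-MuDR, and MER96B and MamRep137 were kept as mixed families of their own. Another 15 names, whose class was marked as uncertain with a question mark, were not included. Of the 185 names, 158 passed a filter of 10 or more normalized reads in at least 3 of 12 libraries, out of 1170 names that passed in the whole table. The other 27 averaged 0.982 to 6.78 normalized reads over the libraries and were not tested.

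RNA was sequenced from TT2, an established mouse embryonic stem (ES) cell line kept on gelatin, in 4 groups of 3 libraries. Cells without Rlf and Zfp292 (double knockout, DKO) and wild-type cells (WT) were sampled after 72 h in 5 µM retinoic acid (RA) without LIF, and in ES medium with LIF, called serum/LIF here. Rlf and Zfp292 encode zinc finger proteins, and the series title ties them to bivalent genes and the CoREST complex. The labels call the libraries biological replicates but do not say whether each genotype is 1 clone or several, so p-values below measure the spread between these libraries. Their molecule field reads genomic DNA, while their extraction protocol describes total RNA.

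DNA transposons move by a cut-and-paste route, in which a transposase recognises the inverted repeats at the ends of an element and moves it elsewhere. In the mouse genome the known families are ancient and are regarded as immobile, and many names stand for short elements that never encoded a transposase of their own. Because old copies lie in introns and untranslated regions as well as between genes, reads over them can come from transcripts of the host gene as well as from the element. The deposited table sums all copies of a name and positions of single copies were not used here, so the 2 sources cannot be told apart for any member, including Kanga11a and Ricksha_c.

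The libraries held 2164824 to 3121854 reads in repeats, of which 51221 to 68140 lay in DNA repeats, and 30869766 to 40236799 reads in genes. In the libraries labelled DKO, Rlf had 1 read after RA and 6 reads in serum/LIF, and Zfp292 had 0 reads in both conditions. Replicate 2 of WT after RA stood apart, since rRNA repeats took 41.7% of its repeat reads, against 4.14% to 7.28% in the other 11 libraries. With rRNA repeats left out, the share of DNA repeats in that library was 2.82%, and the 12 libraries ranged between 2.59% and 2.82%. The summed level of 7 ES cell markers was 6718 to 7137 in DKO and 4201 to 4275 in WT after RA, and 93335 to 95608 in DKO and 107546 to 109532 in WT in serum/LIF, so the cells labelled as ES cells expressed them. In bulk RNA, fewer cells of a type and less RNA per cell cannot be told apart.

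Both the size and the direction of the change with RA in the summed level of the class depended on the scaling between libraries. With the repeat table's own size factors, the sums in DKO were 58582, 58919 and 58974 normalized reads after RA, against 57574, 57898 and 57666 in serum/LIF. The sums in WT were 60150, 59618 and 58931 after RA, against 57179, 56328 and 56028 in serum/LIF. All RA libraries lay above all serum/LIF libraries of their genotype, by 1.93% on average in DKO and 5.41% in WT. With the gene table's size factors the same reads gave 54368 ± 954 after RA against 63340 ± 3846 in serum/LIF in DKO, and 52630 ± 1241 against 62873 ± 2280 in WT (SD, n = 3). The order was turned round, with differences of −14.2% in DKO and −16.3% in WT. DKO exceeded WT in serum/LIF by 2.13% with the repeat table's size factors, with no overlap, and by 0.743% with the gene table's, with overlap. After RA, DKO lay 1.24% below WT with overlapping libraries, and 3.30% above WT with the gene table's size factors, again with overlap.

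**Figure D1:**
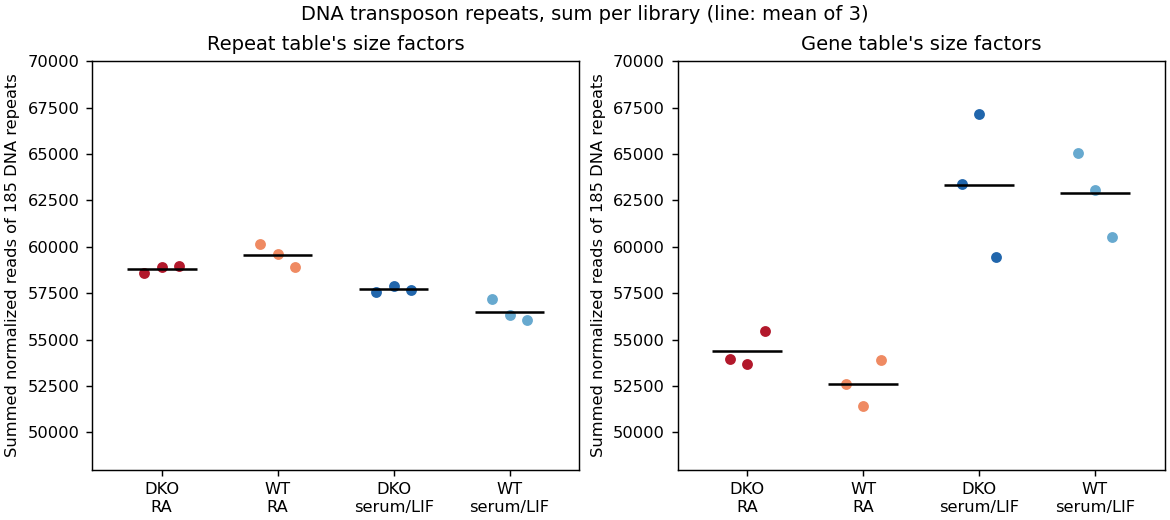
Summed normalized reads of the 185 DNA repeats in each library (points; lines are means of 3), scaled by the repeat table's size factors on the left and the gene table's on the right on a vertical axis that does not start at 0. RA libraries lie above serum/LIF libraries of their genotype in the left panel and below them in the right panel.

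Reads were concentrated in few names. The hAT-Charlie family held 67.5% of the class, TcMar-Tigger 19.2% and hAT-Tip100 5.46%, while the 2 highest names, the rodent hAT-Charlie elements URR1B and URR1A, held 22.6% between them and the highest 10 names 49.5%. These are shares of reads, and levels of different names are not compared here because the table gives no lengths. The spread between replicates followed the level: the median coefficient of variation was 7.42% for the 76 tested names that averaged 100 or more, and 23.4% for the 82 below that.

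RA changed more members than the loss of Rlf and Zfp292 did. In DKO, 30 members rose and 19 fell with RA out of 158 (31.0%; limma, Benjamini-Hochberg adjusted p under 0.05 over all 1170 names). Over all repeats 46.3% were called, 23.4% higher and 22.9% lower. In WT, 37 members rose and 22 fell (37.3%), where 50% of all repeats were called, 24.7% higher and 25.3% lower. Without replicate 2 of WT after RA, the library rich in rRNA repeats, 31 members rose and 22 fell in WT, against 264 and 283 of 1165 over all repeats. The share of DNA repeats called was thus below that of all repeats in both genotypes, but shares at equal level were not compared. With a filter of 50, 44.9% of the members were called in DKO and 53.3% in WT, against 56.4% and 60.3% of all repeats. The median log2 fold change over the members was 0.02 in DKO and 0.05 in WT, against 0.01 and −0.01 over all repeats. A log2 change of at least 1 in either direction was reached by 11 called members in DKO and by 16 in WT, and by 10.9% of all repeats in DKO and 15% in WT.

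Directions depended on the scaling here too. The gene table's size factors moved the median of all repeats by −0.25 in DKO and −0.33 in WT on the log2 scale, and the calls became 18 higher and 45 lower in DKO and 21 higher and 61 lower in WT, of 160 members tested. Over all repeats 53.2% were then called in DKO, 13.1% higher and 40.1% lower, and 61.2% in WT, 13.2% higher and 48% lower. All 19 lower calls in DKO and all 22 in WT remained lower. Of the higher calls, 18 of 30 remained in DKO and 21 of 37 in WT, where 1 name, URR1B, became lower. Relative to the median of all repeats, the members' median was 0.01 in DKO and 0.06 in WT under either scaling. New size factors shift all repeats of a comparison by nearly the same amount, so this sameness follows from the scaling itself. The downward shift likewise favoured that lower calls remained lower. The 2 genotypes shared 40 calls, which is 81.6% of those in DKO and 67.8% of those in WT: 25 were higher in both and 13 lower in both. Over all repeats, 434 calls were shared, which is 80.1% of those in DKO and 74.2% of those in WT. Tigger12 and MER45B were called in opposite directions, but neither opposition held in all alternatives. The call of Tigger12 in WT was lost or turned round in 8 alternatives, with log2 changes of −0.73 in DKO and −0.10 in WT under the gene table's size factors, and the call of MER45B in DKO was lost in 5, with 0.12 under those factors (limma, adjusted p = 0.512).

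**Figure D2:**
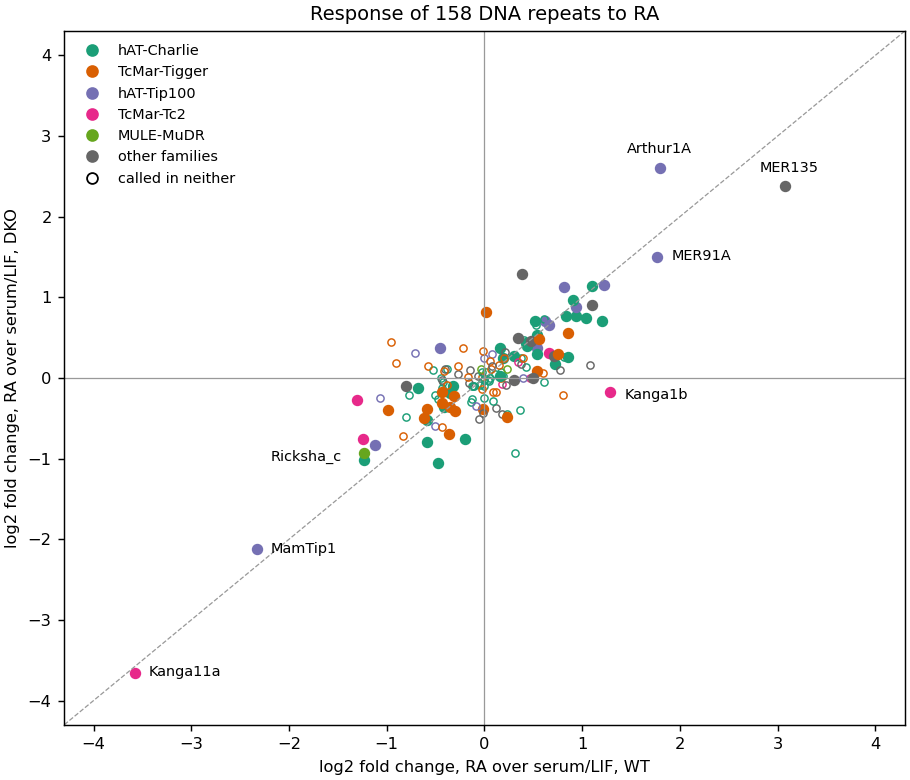
Log2 fold change of each of 158 DNA repeats with RA in WT (horizontal) and in DKO (vertical), coloured by family, with filled points for those called in either genotype and the dashed line marking equal change. Kanga11a and MamTip1 lie lowest on both axes, and MER135, Arthur1A and MER91A lie highest.

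Calls were also counted by family, beside the shares over all repeats. Those shares were 23.4% higher and 22.9% lower in DKO and 24.7% and 25.3% in WT. With the gene table's size factors they were 13.1% and 40.1% in DKO and 13.2% and 48% in WT. Of 65 tested hAT-Charlie members, 13 rose and 6 fell in DKO and 16 rose and 7 fell in WT. The gene table's size factors turned this into 7 higher and 24 lower in DKO and 8 higher and 27 lower in WT. TcMar-Tigger, the pogo-like family, had 4 higher and 8 lower of 39 in DKO and 5 higher and 7 lower in WT, and 2 higher and 13 lower in DKO and 3 higher and 20 lower in WT with the gene table's size factors. In hAT-Tip100, 8 rose and 2 fell of 18 in DKO and 7 rose and 3 fell in WT. With the gene table's size factors, which let 19 members pass the filter, it had 6 higher and 2 lower in DKO and 6 higher and 6 lower in WT. TcMar-Tc2 had 0 higher and 2 lower of 8 in DKO and 2 higher and 3 lower in WT under both scalings. Of 7 hAT-Blackjack members none was called in DKO and 1 rose in WT, which was not called with the gene table's size factors. No test compared families with each other.

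**Figure D3:**
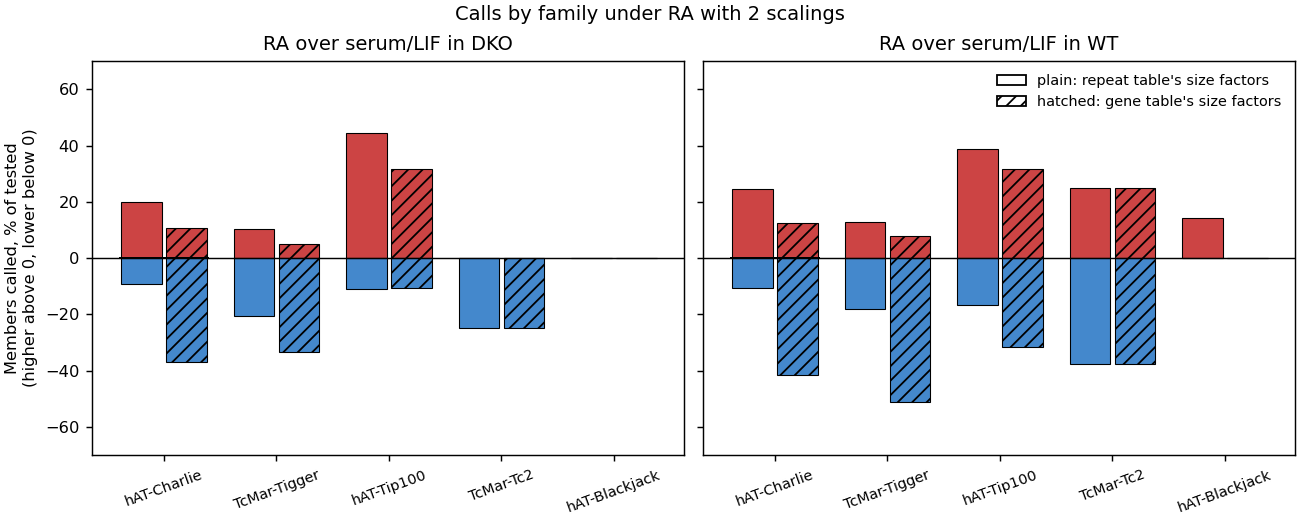
Share of tested members called higher (above 0) or lower (below 0) with RA in 5 families, in DKO on the left and WT on the right, with the repeat table's size factors (plain bars) and the gene table's (hatched bars). The lower share of hAT-Charlie and TcMar-Tigger grows under the gene table's size factors, as that of all repeats did, while the bars of TcMar-Tc2 are equal under both.

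Kanga11a, a TcMar-Tc2 element, fell the most of any member with RA. In DKO it had 65.9, 79.6 and 56.1 normalized reads after RA, against 870, 851 and 829 in serum/LIF. In WT it had 64.9, 74.5 and 57.9 normalized reads after RA, against 761, 801 and 820 in serum/LIF. All 6 RA libraries lay far below all 6 serum/LIF libraries, and the genotypes overlapped after RA. The log2 fold change was −3.65 ± 0.12 (SE) in DKO and −3.58 ± 0.12 in WT (limma, adjusted p = 2.1e-18 and 2.94e-18), and it kept its call in all 23 alternatives, with a range of −3.90 to −3.53 in DKO and −3.91 to −3.49 in WT. Neither DKO against WT comparison of Kanga11a was called.

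Kanga11a set the sum of its family. It held 58.6% of TcMar-Tc2 reads in DKO and 59.7% in WT in serum/LIF, and 9.74% and 9.46% after RA. The family sum was 690 ± 45.5 normalized reads after RA against 1451 ± 90.9 in serum/LIF in DKO, and 695 ± 22.1 against 1330 ± 28.8 in WT (SD, n = 3). Without Kanga11a, an alternative chosen after the data were seen, the sum was 623 ± 49.1 after RA against 601 ± 75.8 in serum/LIF in DKO, with overlap, and 630 ± 30.3 against 536 ± 12.7 in WT, with no overlap. Sums of RA and serum/LIF libraries lay apart for 58.6% of 58 repeat families in DKO and for 67.2% in WT. The other 7 members did not move together: in WT, Kanga1b rose by 1.29 ± 0.40 on the log2 scale (limma, adjusted p = 0.00892), while MER104 and Kanga1d had −1.25 ± 0.26 and −1.31 ± 0.49 (limma, adjusted p = 0.000291 and 0.0279). Kanga1b had 10.3, 10.1 and 12.4 normalized reads in DKO and 20.6, 25.6 and 22.6 in WT after RA, against 10.4, 11.1 and 16.4 in DKO and 10.1, 9.60 and 6.93 in WT in serum/LIF. The Kanga1d call in WT was lost without replicate 2 of WT after RA (adjusted p = 0.22) or without replicate 2 of WT in serum/LIF (adjusted p = 0.107).

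hAT-Tip100 held members at both ends of the response. MamTip2, its most abundant name, had 602, 587 and 621 normalized reads after RA against 978, 1175 and 1073 in serum/LIF in DKO. In WT it had 689, 680 and 624 after RA against 1519, 1517 and 1303 in serum/LIF. The condition groups did not overlap in either genotype, and the log2 change was −0.83 ± 0.07 in DKO and −1.12 ± 0.07 in WT (limma, adjusted p = 1.03e-09 and 2.46e-12). MamTip1, with few reads, fell to 7.21, 13.1 and 29.5 normalized reads in DKO after RA, against 76.0, 59.7 and 61.2 in serum/LIF. In WT it had 16.5, 10.5 and 18.6 after RA, against 80.6, 91.2 and 65.8 in serum/LIF. The groups did not overlap, and the change was −2.12 ± 0.35 in DKO and −2.33 ± 0.35 in WT (limma, adjusted p = 1.97e-05 and 4.19e-06).

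MER91A, of the same family, went the other way, with 278, 212 and 207 normalized reads after RA against 90.6, 78.9 and 73.2 in serum/LIF in DKO. In WT it had 318, 332 and 301 after RA, against 117, 82.6 and 80.5 in serum/LIF. It rose by 1.5 ± 0.16 in DKO and 1.77 ± 0.16 in WT (limma, adjusted p = 1.37e-08 and 5.18e-10), and kept both calls in all 23 alternatives. Arthur1A rested on few reads: 22.7, 8.06 and 12.4 after RA against 0, 5.06 and 1.09 in serum/LIF in DKO, and 22.7, 21.0 and 15.7 against 3.36, 6.72 and 5.19 in WT. Its log2 change was 2.61 ± 0.62 in DKO and 1.79 ± 0.62 in WT (limma, adjusted p = 0.0012 and 0.0187). Arthur1A passed the filter only through its RA libraries, so a difference in this direction was built into its selection, and its p-values are given as a description. The WT call was lost without replicate 1 of WT in serum/LIF, replicate 1 of WT after RA or replicate 2 of WT after RA (adjusted p = 0.0653, 0.0661 and 0.0571). The family sum was 3390 ± 102 after RA against 2772 ± 61.6 in serum/LIF in DKO, with no overlap, and 3321 ± 211 against 3213 ± 146 in WT, with overlap. With the gene table's size factors these ratios were 1.03 in DKO and 0.82 in WT.

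In hAT-Charlie, the most abundant name, URR1B, had 7121 to 7399 normalized reads in DKO and 7335 to 7768 in WT after RA, against 6962 to 7309 in DKO and 6597 to 6944 in WT in serum/LIF. Its rise of 0.16 ± 0.03 in WT (limma, adjusted p = 0.000392) became a fall of −0.17 with the gene table's size factors (limma, adjusted p = 0.00898). Charlie24 fell in both genotypes, with 275, 262 and 206 normalized reads after RA against 509, 473 and 510 in serum/LIF in DKO, and 226, 260 and 237 against 565, 551 and 587 in WT. The change was −1.02 ± 0.10 in DKO and −1.24 ± 0.10 in WT (limma, adjusted p = 9.36e-09 and 1.98e-10). Charlie8, chosen after its values were seen, had 1926, 2008 and 1984 normalized reads after RA against 1092, 1184 and 1265 in serum/LIF in DKO. In WT it had 2535, 2562 and 2262 after RA, against 1241, 1111 and 1216 in serum/LIF. It rose by 0.74 ± 0.06 in DKO and 1.04 ± 0.06 in WT (limma, adjusted p = 1.75e-10 and 1.65e-13). MER106A, at 9.27 to 18.1 normalized reads after RA and 23.3 to 38.5 in serum/LIF in DKO, was called lower in DKO (log2 −1.05 ± 0.40; limma, adjusted p = 0.0342). That call was lost without the first DKO library after RA, or without the first or the third DKO library in serum/LIF (adjusted p = 0.165, 0.127 and 0.0792).

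MER135, whose family field reads only DNA, showed the largest rise in WT. It had 25.7, 38.3 and 59.0 normalized reads in DKO and 99.9, 114 and 66.7 in WT after RA, against 4.17, 9.11 and 7.65 in DKO and 15.9, 5.76 and 10.4 in WT in serum/LIF. RA and serum/LIF libraries did not overlap in either genotype, and the change was 2.38 ± 0.39 in DKO and 3.08 ± 0.39 in WT (limma, adjusted p = 1.65e-05 and 2.85e-07). Like Arthur1A, MER135 passed the filter only through RA libraries, which holds for no other member called with RA. MER121, of the uncertain TcMar family, had 37.1, 31.2 and 17.1 normalized reads after RA and 18.7, 6.07 and 9.83 in serum/LIF in DKO. These overlapped, although the name was called (1.29 ± 0.41; limma, adjusted p = 0.0122), and the call did not hold when replicate 1 of DKO after RA or the second DKO library in serum/LIF was left out (adjusted p = 0.0709 and 0.0867). The mariner element MARNA rose in WT by 0.31 ± 0.07 (limma, adjusted p = 0.000565) but had −0.02 with the gene table's size factors. MER2, the most abundant TcMar-Tigger name, was called in neither genotype, at 2161 to 2179 normalized reads in DKO and 1969 to 2232 in WT after RA and 2062 to 2224 in DKO and 2100 to 2157 in WT in serum/LIF. It was, with the gene table's size factors, called lower in both, at −0.23 in DKO and −0.35 in WT. The PiggyBac element Looper, the uncertain PiggyBac name UCON29, and MER53 and MER63D, the most abundant names of hAT and hAT-Blackjack, were called in no comparison. Under the other scaling, by the gene table, Looper was called lower with RA in DKO (−0.75; limma, adjusted p = 0.0173) and MER53 in WT (−0.40; limma, adjusted p = 0.000479). DNA1_Mam and MamRep1879, the only names of their families, did not pass the filter. MamRep1879 did pass with the gene table's size factors and was called lower with RA in WT (−2.07; limma, adjusted p = 0.0115).

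**Figure D4:**
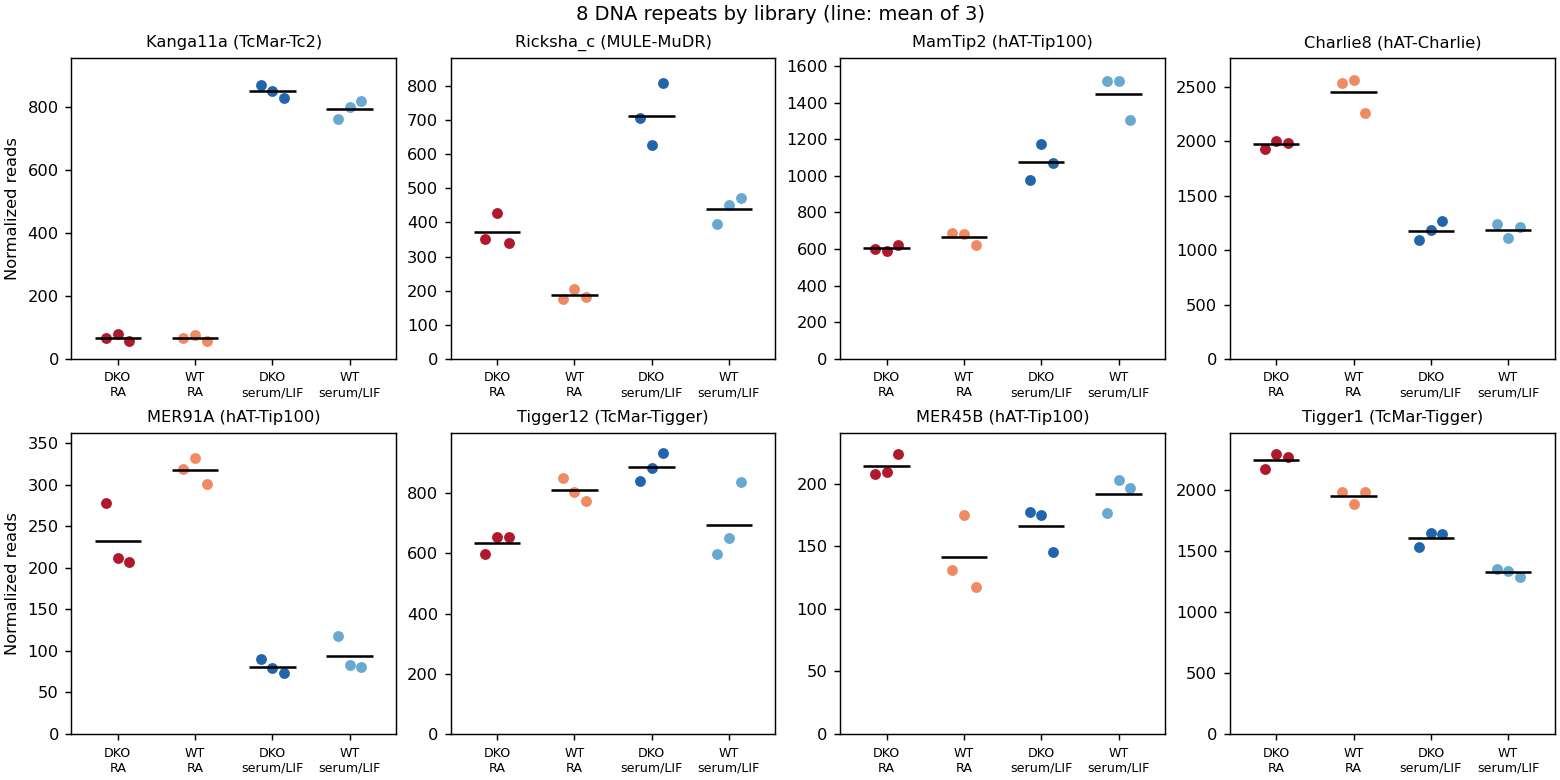
Normalized reads of 8 DNA repeats in each library (points; lines are means of 3), with the vertical axis of each panel starting at 0. Kanga11a and MamTip2 are low after RA in both genotypes, Ricksha_c is higher in DKO than in WT in both conditions, and Tigger12 is lower in DKO than in WT after RA but higher in serum/LIF.

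Few members differed between DKO and WT. In serum/LIF, 6 members were higher and 2 lower in DKO (5.06% of 158; limma, Benjamini-Hochberg adjusted p under 0.05 over all repeats), against 5.56% higher and 4.27% lower, or 9.83% in all, over all repeats. After RA, 3 were higher and 8 lower (6.96%), against 5.47% higher and 5.56% lower, or 11% in all. The median log2 fold change of the members was 0.02 in serum/LIF and 0.01 after RA, and 0.01 over all repeats in both. With the gene table's size factors, 5 members were higher and 2 lower in serum/LIF (8.11% of all repeats called, 4.36% higher and 3.76% lower), and 5 higher and 5 lower after RA (9.99% called, 6.83% higher and 3.16% lower). All 8 calls in serum/LIF and 8 of the 11 after RA were of names that averaged 100 or more. DKO and WT libraries lay apart for all 8 and all 11 called members, so a lack of overlap adds little to a call. With RA the condition groups lay apart for 47 of 49 called members in DKO and 56 of 59 in WT. The count in serum/LIF dropped to 5 without replicate 3 of DKO, 5 without replicate 1 of WT and 4 without replicate 2 of WT, and that after RA to 7 without replicate 2 of DKO and 8 without replicate 2 of WT. Over all repeats the share called dropped too, to 6.94%, 7.29% and 6.17% in serum/LIF, and to 8.15% and 9.27% after RA. Other measures moved with the genotype: 8 fibroblast markers summed to 10315 to 11140 in DKO against 4415 to 4564 in WT in serum/LIF, where 5 were called higher, and 7 markers of two-cell-like cells to 2.35 to 9.17 against 157 to 163, with 4 of them at 0 in DKO and 5 called lower. After RA the fibroblast markers summed to 41960 to 44599 in DKO against 35436 to 37954 in WT, but only 2 of the 8 were called higher and 1 lower, and 6 had a lower mean in DKO. The two-cell markers then summed to 75.3 to 93.1 in DKO against 3271 to 3403 in WT, with all 7 called lower. The 5 neural markers summed to 3196 to 3411 in DKO against 7507 to 8099 in WT after RA, with all 5 called lower, and to 9558 to 10119 against 8456 to 9010 in serum/LIF, with 2 higher and 1 lower. The 4 trophoblast markers summed to 11284 to 11975 in DKO against 11821 to 12720 in WT after RA, with 1 lower, and to 1831 to 2463 against 599 to 638 in serum/LIF, with 2 higher. The sum in serum/LIF lay mostly in Krt8 and Krt18, with means of 1321 and 776 in DKO against 324 and 246 in WT. Cdx2 and Elf5 had lower means in DKO there, 24.4 and 5.36 against 30.0 and 13.3. The part of all these markers in the repeat differences was not tested.

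Ricksha_c, a MULE-MuDR element, was higher in DKO in both conditions and fell with RA in both genotypes. It had 351, 427 and 340 normalized reads in DKO and 175, 204 and 181 in WT after RA. In serum/LIF it had 705, 627 and 808 in DKO and 395, 450 and 473 in WT. The lowest DKO library lay above the highest WT library in each condition. The log2 fold change of DKO over WT was 0.99 ± 0.11 after RA and 0.69 ± 0.11 in serum/LIF (limma, adjusted p = 2.23e-07 and 8.5e-05), and that of RA over serum/LIF was −0.93 ± 0.11 in DKO and −1.23 ± 0.11 in WT (limma, adjusted p = 9.14e-08 and 5.7e-10). All 4 calls were kept in all 23 alternatives.

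The difference in the MULE-MuDR sum rested on Ricksha_c. This name held 77.7% of the family's reads in DKO and 63.9% in WT after RA, and 87.8% and 82.6% in serum/LIF. The family sum was 479 ± 33.5 in DKO against 292 ± 25.6 in WT after RA, and 813 ± 102 against 532 ± 43.7 in serum/LIF. DKO and WT did not overlap in either condition, which was so for 27.6% of 58 repeat families after RA and 39.7% in serum/LIF. Without Ricksha_c, chosen after the data were seen, the sum was 107 ± 17.1 in DKO against 106 ± 10.5 in WT after RA and 99.4 ± 20.1 against 92.6 ± 5.33 in serum/LIF, with overlap in both. Ricksha and Ricksha_0, the other members tested, were called in no comparison.

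In serum/LIF the other higher members belonged to the 2 largest families, hAT-Charlie (2 of 65 tested) and TcMar-Tigger (3 of 39), where 5.56% of all repeats were higher. Charlie10 had 340, 331 and 363 normalized reads in DKO against 283, 229 and 259 in WT, a log2 difference of 0.43 ± 0.09 (limma, adjusted p = 0.00262). Charlie17b had 235, 206 and 203 in DKO against 159, 125 and 152 in WT (0.57 ± 0.14; limma, adjusted p = 0.00688), a call lost without replicate 1 of DKO (adjusted p = 0.0511) or replicate 2 of WT (adjusted p = 0.0601). Tigger1 was higher in DKO in both conditions, with 2174, 2298 and 2269 normalized reads in DKO against 1985, 1888 and 1982 in WT after RA, and 1531, 1645 and 1637 against 1349, 1336 and 1290 in serum/LIF. DKO and WT did not overlap in either condition, and its differences of 0.20 ± 0.05 and 0.28 ± 0.05 (limma, adjusted p = 0.00582 and 0.000329) were kept in all 23 alternatives. Tigger10 was called at 0.26 ± 0.07 in serum/LIF (limma, adjusted p = 0.0271), and the call was lost in 6 of 23 alternatives, including when replicate 1 or 3 of DKO or replicate 1 or 2 of WT was left out (adjusted p = 0.138, 0.11, 0.0759 and 0.111).

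The 2 members lower in DKO in serum/LIF were MamTip2 and MER105. The MamTip2 values given above did not overlap there, at 978 to 1175 normalized reads in DKO against 1303 to 1519 in WT, and the difference was −0.43 ± 0.07 (limma, adjusted p = 0.000251). The hAT-Tip100 sum in serum/LIF was 2772 ± 61.6 in DKO against 3213 ± 146 in WT, with no overlap, which was so for 39.7% of 58 repeat families. That sum includes MamTip2, with means of 1075 in DKO and 1446 in WT. Of 18 tested members of the family, only MamTip2 was called in serum/LIF and 17 were not, where 9.83% of all repeats were called. The sum without MamTip2 was not computed, so a difference in the rest of the family was not tested. MER105, whose family field reads only DNA, had 109, 108 and 78.6 normalized reads in DKO against 171, 165 and 145 in WT (−0.71 ± 0.18; limma, adjusted p = 0.0111). That call was lost without replicate 3 of DKO (adjusted p = 0.0816), replicate 1 of WT (adjusted p = 0.0548) or replicate 2 of WT (adjusted p = 0.0521).

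After RA the members lower in DKO included some of very low level. Charlie13b had 3.09, 5.04 and 7.61 normalized reads in DKO against 14.4, 29.1 and 15.7 in WT, a log2 difference of −1.73 ± 0.50 (limma, adjusted p = 0.0238). MER47A, a TcMar-Tigger name, had 15.4, 10.1 and 10.5 in DKO against 28.8, 31.4 and 23.6 in WT (−1.17 ± 0.37; limma, adjusted p = 0.0421). MER135 was also lower in DKO (−1.21 ± 0.39; limma, adjusted p = 0.0442). None of these 3 pairs of groups overlapped, which held for all 11 members called after RA and so does not set these names off. Their calls were lost in 3, 8 and 7 alternatives. For Charlie13b the libraries that decided it were replicates 1 and 2 of DKO and replicate 2 of WT (adjusted p = 0.107, 0.0566 and 0.132). For MER135 they were replicates 1 and 2 of DKO and of WT (adjusted p of 0.115 to 0.204), and for MER47A replicates 2 and 3 of DKO, all 3 of WT and replicate 3 of WT in serum/LIF (adjusted p of 0.0511 to 0.134). MER102b, of hAT-Charlie, was better measured, with 274, 260 and 298 normalized reads in DKO against 423, 416 and 364 in WT (−0.53 ± 0.12; limma, adjusted p = 0.00252), and kept its call in all 23 alternatives. Charlie8, with the values given above, was lower in DKO by −0.31 ± 0.06 (limma, adjusted p = 0.000711).

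**Figure D5:**
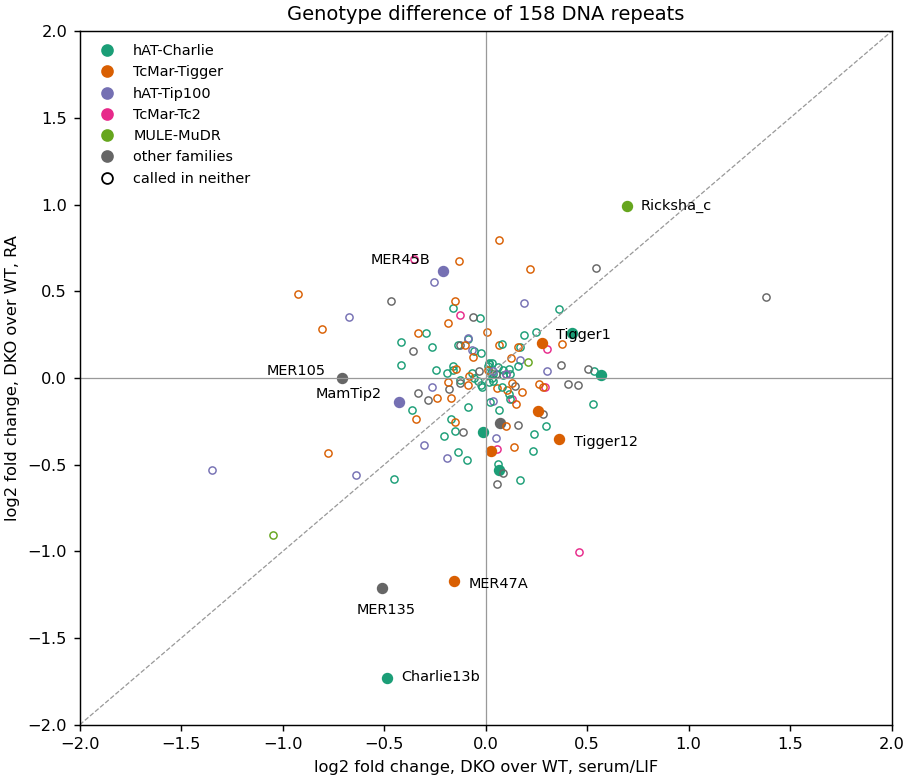
Log2 fold change of DKO over WT for each of 158 DNA repeats in serum/LIF (horizontal) and after RA (vertical), coloured by family, with filled points for those called in either condition and the dashed line marking equal difference. Ricksha_c lies apart at the upper right, and Tigger12 is the only member called in both with opposite signs.

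For 6 members the genotype difference itself changed with the condition (3.80% of 158; limma interaction, Benjamini-Hochberg adjusted p under 0.05), against 6.67% of all repeats, of which 2.82% were positive and 3.85% negative. Tigger12 had 597, 656 and 654 normalized reads in DKO against 851, 804 and 775 in WT after RA. In serum/LIF it had 841, 884 and 935 in DKO against 598, 652 and 837 in WT. It was thus below WT after RA (−0.35 ± 0.09; limma, adjusted p = 0.0115) and above WT in serum/LIF (0.36 ± 0.09; limma, adjusted p = 0.0107), and the interaction was −0.71 ± 0.13 (limma, adjusted p = 0.000847). Of the 3 calls, that in serum/LIF was lost in 4 alternatives and that after RA in 2, among them those without replicate 1 of WT of the condition (adjusted p = 0.0793 in serum/LIF and 0.0637 after RA). The interaction was kept in all 22 alternatives.

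MER45B, of hAT-Tip100, was the only member called with a positive interaction (0.83 ± 0.20; limma, adjusted p = 0.0102). It had 208, 210 and 224 normalized reads in DKO against 131, 175 and 118 in WT after RA, with no overlap, and 177, 175 and 145 against 176, 203 and 197 in serum/LIF, with overlap. The difference after RA was 0.62 ± 0.14 (limma, adjusted p = 0.00379). Tigger10, MER102b, MARNA and Charlie8 had interactions of −0.45 ± 0.10, −0.60 ± 0.16, −0.33 ± 0.10 and −0.30 ± 0.09 (limma, adjusted p = 0.00846, 0.0261, 0.0404 and 0.0341). The call of Tigger10 was kept in all 22 alternatives, while those of MER102b and MARNA were lost in 7 and 11. The call of MARNA between DKO and WT after RA (−0.26 ± 0.07; limma, adjusted p = 0.0133) was lost with the gene table's size factors (adjusted p = 0.143), without replicate 2 of DKO after RA (adjusted p = 0.0553) and without replicate 1 of WT after RA (adjusted p = 0.0509). The count of interactions dropped to 3 with the gene table's size factors, 1 positive and 2 negative (6.06% of all repeats called, 3.59% positive and 2.48% negative). It was also 3 without replicate 2 of WT in serum/LIF, replicate 1 or 2 of DKO after RA or replicate 1 of WT after RA. Of all repeats, 4.64% to 5.66% were called without these libraries. The 3 calls left in each of these settings were those of Tigger12, Tigger10 and MER45B, so the call of Charlie8 was lost at least there.

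DNA transposons have also left working genes in the mouse genome, and 27 such genes were looked up in the gene table, of which 23 were tested. Tigd4, Rag1, Rag2 and Thap9 were not analysed here. In DKO, 11 rose and 4 fell with RA, where 78.3% of all tested genes were called, 40.2% higher and 38.2% lower. In WT, 12 rose and 7 fell, where 80.6% of genes were called, 41.4% higher and 39.2% lower. After RA, 5 were higher and 4 lower in DKO than in WT (42.7% of all genes called, 22% higher and 20.7% lower), and in serum/LIF 4 were higher and 3 lower (33.2% called, 17.8% higher and 15.4% lower). The genotype difference changed with RA upwards for 2 and downwards for 4 (30.8% of genes called, 14.8% upwards and 16% downwards).

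Pgbd5, a PiggyBac-derived gene active in neural tissue (mm10 chromosome 8, 124369049 to 124433936), had 1906, 1881 and 1722 normalized reads in DKO against 602, 541 and 507 in WT after RA, and 217, 219 and 250 against 178, 177 and 179 in serum/LIF. All 4 groups were apart, and its interaction was 1.38 ± 0.13 (limma, adjusted p = 2.14e-08). Pogk, a pogo-derived gene (chromosome 1, 166393610 to 166409828), rose by 2.61 ± 0.13 in DKO and 3.37 ± 0.13 in WT (limma, adjusted p = 3.45e-15 and 1.59e-17). Cenpb, which encodes the centromere protein that binds the CENP-B box (chromosome 2, 131177289 to 131180067), had 4125, 4377 and 3946 normalized reads in DKO against 6110, 6311 and 6062 in WT after RA, and 2469, 2154 and 2596 against 2323, 2331 and 2622 in serum/LIF. The genotypes were apart after RA and overlapped in serum/LIF, with an interaction of −0.56 ± 0.08 (limma, adjusted p = 2.21e-05).

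The hAT-derived genes went different ways with RA. Zbed3, chosen like Zbed6 after its values were seen, rose by 1.17 ± 0.09 in DKO and 1.11 ± 0.09 in WT (limma, adjusted p = 8.6e-12 and 2.16e-11), while Zbed5 fell by 1.68 ± 0.12 and 2.08 ± 0.12 on the log2 scale (limma, adjusted p = 1.93e-12 and 2.63e-14). Zbed6, a repressor of Igf2 encoded within an intron of Zc3h11a, was higher in DKO than in WT after RA by 0.40 ± 0.09 (limma, adjusted p = 0.00142). Its reads may be shared with that host gene, since the sources used here do not state the strand and overlap settings of the counting. Zmym2, a Crypton-derived gene known as a partner of the LSD1-CoREST complex and chosen here after its values were seen, had 4120 to 4248 normalized reads in DKO and 3708 to 4073 in WT after RA, and 4827 to 5273 in DKO and 5047 to 5583 in WT in serum/LIF. It fell with RA by 0.26 ± 0.05 in DKO and 0.44 ± 0.05 in WT (limma, adjusted p = 1.94e-05 and 7.46e-09) and was called between the genotypes in neither condition.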

How the data were processed

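Total RNA of 12 libraries was extracted with ISOGEN and sequenced as paired-end reads, per the labels' protocols. Per the submitters' processing notes, the tools were DESeq2 1.44.0, the featureCounts program of Subread 2.0.6, Trim Galore 0.6.10 and STAR 2.7.11b, with mm10 as the build. How reads that map to several copies of a repeat were counted is not given in the sources used here, and reads of near-identical names such as URR1A and URR1B could be split between them. In both deposited tables (genes and repeats) the library columns hold a signal, namely reads divided by a size factor of the library, as 100% of values came out as whole reads within 0.01. Each table has its own size factors.

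Values were taken as log2(value + 1), so changes of low names are understated. limma 3.58.1 in R 4.3.3 (trend, robust) fitted 1170 repeats, and the genes apart from them, over all 12 libraries with 1 mean per group. Benjamini-Hochberg adjustment ran over all features of a table, with calls under 0.05. Errors of log2 changes are standard errors of that fit. The interaction is DKO minus WT after RA less DKO minus WT in serum/LIF. Family and class sums add normalized reads of all members and have no test.

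Alternatives were pseudocounts of 0.5 and 5, no filter, a filter of 50, the gene table's size factors, TMM, rRNA repeats left out, edgeR 4.0.16 and DESeq2 1.42.0 on recovered whole reads, the 2 compared groups alone, a replicate block and leaving out each library. In a comparison of 2 groups, leaving out a library of another group keeps the log2 change and can move only its error and adjusted p. A call kept in all alternatives therefore includes settings that could hardly change it. A simulation of 1170 repeats for DKO against WT in serum/LIF, of which 1142 were tested, recovered 60% of 1.5-fold, 85.5% of 2-fold and 94.8% of 4-fold changes, with 3.7% of calls false. It held no RA effect and no change under 1.5-fold. Its rates are over all repeats, so they do not give those of the DNA members or of smaller changes. No 2 replicates agreed within sampling noise.

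The names given are, per comparison, the 4 higher and 4 lower called members with the largest change, the most abundant member of each family, Kanga11a and Ricksha_c, and, per comparison, up to 4 called host genes with the smallest adjusted p. The text gives part of these, and says where a name was chosen after its values were seen. The members, the host gene list and the marker lists were chosen with earlier results of these data known.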

Additional observations from a re-analysis of the deposited data

Results flagged for a closer look

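The genotype difference of 6 members changed between the conditions by a test of that change (limma interaction, Benjamini-Hochberg adjusted p under 0.05). On the log2 scale, DKO over WT after RA less DKO over WT in serum/LIF was −0.71 for Tigger12, −0.60 for MER102b, −0.45 for Tigger10, −0.33 for MARNA, −0.30 for Charlie8 and 0.83 for MER45B. Tigger12 alone was called in opposite directions in the 2 conditions. MER102b, MARNA, Charlie8 and MER45B were called between the genotypes after RA, and Tigger10 in serum/LIF. The call of MARNA after RA was lost in 3 alternatives and that of Tigger10 in serum/LIF in 6. The interaction calls of MER102b and MARNA were lost in 7 and 11 alternatives, and that of Charlie8 with the gene table's size factors, among others.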

How the results depend on the processing

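The scaling between libraries moved the RA comparisons most, but it also moved medians and sums of the genotype comparisons and the count of interactions. Leaving out single libraries moved the counts of genotype and interaction calls, and some medians of the members. With the gene table's size factors the medians of the members' log2 changes were 0.0764 for DKO against WT after RA, −0.28 for RA in WT, −0.23 for RA in DKO and 0.0735 for the interaction, whose calls numbered 3. The log2 ratios of the class sum were then 0.0107 for DKO against WT in serum/LIF, 0.0469 after RA, −0.26 for RA in WT and −0.22 in DKO. Directions are listed here only for named members that were called and for family sums without overlap under the repeat table's size factors. They turned round for RA in WT in MARNA (−0.0244), Tigger12 (−0.10) and URR1B (−0.17), and in the sums of TcMar-Tigger (−0.25), hAT-Blackjack (−0.0696) and hAT-Charlie (−0.23). The same held for the sums of TcMar-Mariner (−0.0621) and hAT-Charlie (−0.21) for RA in DKO, and of hAT-Charlie for DKO against WT after RA (0.0383). Some sums with overlap turned round too, such as that of hAT-Tip100 for RA in WT, from a ratio of 1.03 to 0.82. Which scaling is nearer to the amount of RNA per cell was not tested. With Ricksha_c left out, the log2 ratio of the MULE-MuDR sum was 0.19 for RA in WT and 0.10 in DKO, and with Kanga11a left out that of TcMar-Tc2 was 0.23 and 0.0502. Leaving out 1 library gave 4 to 10 calls for DKO against WT in serum/LIF, 7 to 12 after RA, 53 to 62 for RA in WT, 42 to 52 in DKO and 3 to 7 interactions. Of all repeats, 6.17% to 10.04%, 8.15% to 11.7%, 45.3% to 50.6%, 40.4% to 47.7% and 4.62% to 7.46% were then called, in that order. The medians of the members were −0.00865 to 0.0248, −0.0144 to 0.0125, 0.0228 to 0.0592, −0.00965 to 0.036 and −0.0308 to 0.00611 in that order. Same-numbered libraries did not deviate together (correlations of −0.07 to 0.05), so no pairing was assumed, and the replicate block gave 8, 10, 60, 50 and 4 calls. edgeR called 9, 12, 57, 48 and 5, and DESeq2 called 9, 12, 58, 47 and 6. Of all repeats, the replicate block called 8.97%, 10.9%, 49.7%, 45.7% and 6.24%. The shares were 9.49%, 10.9%, 49.1%, 46% and 5.73% with edgeR, and 10.1%, 11.3%, 48.9%, 45.5% and 6.92% with DESeq2. Names under about 100 normalized reads varied most, and a change there may be missed at this depth.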
